A study of Mus musculus with 2 samples.

Results

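The genes described here are 9 enzymes of heme synthesis and breakdown: Alas1, Alad, Uros, Urod, Cpox, Ppox, Fech, Hmox1 and Blvrb. They were chosen by gene symbol from the deposited table of 23309 rows, each matched exactly 1 row, and all 9 were among the 11953 rows that the authors tested. RNA sequencing compared mouse bone marrow progenitors treated with 5 nM 4OHT (4-hydroxytamoxifen) or with its ethanol vehicle, both for 72 h. Both conditions used lineage-depleted marrow of Cebpaf/f;CreER mice, whose loxP-flanked Cebpa is cut out when 4OHT activates the Cre recombinase. Both also carried the retroviruses MIGR1-HA-Hoxa9 and MIGR1-Flag-Meis1 and grew in interleukin-3, so neither condition stands for normal marrow. The promoter that drives CreER, the number of mice and the number of clones are not given in the sources used here, and no vehicle-treated or 4OHT-treated cells without CreER are among the samples.

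Heme is an iron-bearing porphyrin that cytochromes, catalase, myeloperoxidase, the phagocyte oxidase and hemoglobin need. Its synthesis starts in the mitochondrion, where ALAS condenses glycine with succinyl-CoA in the rate-limiting step, goes on in the cytosol with ALAD, UROS and UROD among the enzymes there, and returns to the mitochondrion for CPOX, PPOX and FECH, which inserts the iron. Most tissues use ALAS1, erythroid cells use ALAS2, and in liver heme itself lowers ALAS1. Breakdown runs through heme oxygenase (HMOX1, which stress and heme induce, and the constitutive HMOX2) to biliverdin, which is then reduced to bilirubin. BLVRA and BLVRB are the biliverdin reductases.

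Each condition has 1 deposited value per gene, which joins 2 replicates. Values are in FPKM (fragments scaled by transcript length and by depth), a scale on which levels of different genes can be set side by side. No read counts and no spread between replicates are given, so no error accompanies a value, the depth is unknown, and the only test is the q in the authors' deposited table. "Rose" and "fell" are used where that q was under 0.05. Cebpa had 42.8 FPKM in 4OHT cells and 109 FPKM in vehicle cells, 39.2% of the vehicle value, and its q in the authors' deposited table was 0.00165.

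The entry enzyme of synthesis and the inducible enzyme of breakdown were the members that fell. Alas1 stood at 47.2% of its vehicle level and Hmox1 at 55.6%. The 7 others did not pass the test: Alad, Uros, Urod, Ppox, Fech and Blvrb lay within 20% of their vehicle levels, and Cpox stood at 74.3%. Thus 2 of 9 members fell and 0 rose (0 were higher at an unadjusted p under 0.05 too), against 3.11% of all tested rows called lower, 2.8% called higher and 5.91% called either way in the authors' deposited table. In these bulk samples, fewer cells that express a gene and less of its RNA per cell cannot be told apart.

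**Figure D1:**
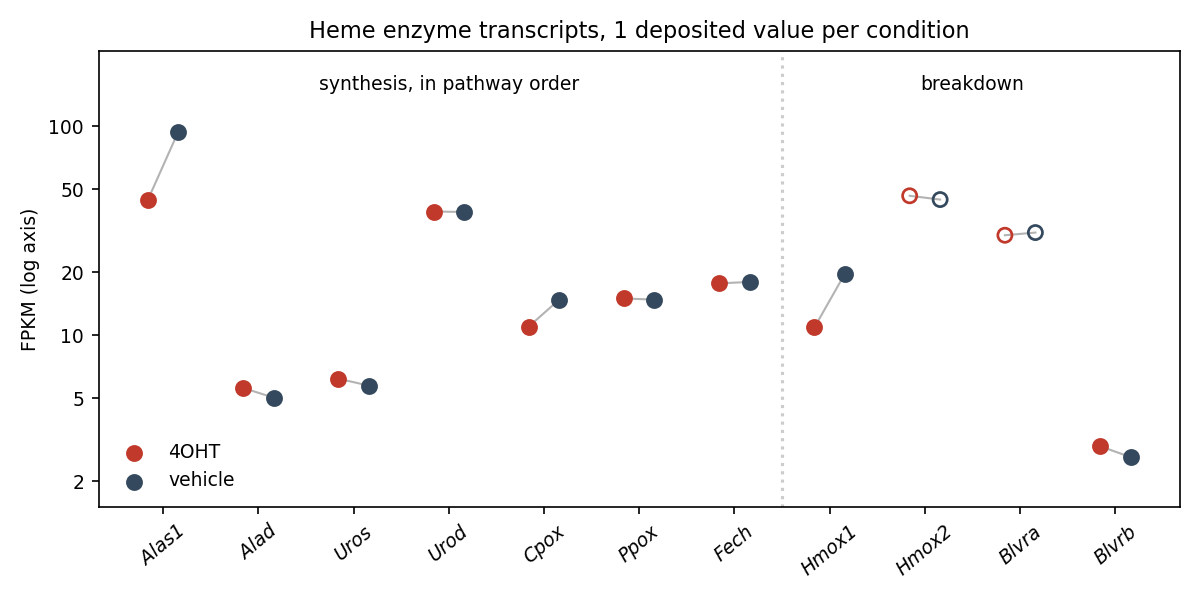
FPKM (log axis) of the heme enzymes after 4OHT (red, left of each pair) and vehicle (dark blue, right), 1 deposited value per point with no error. Filled points are the 9 members and open points are Hmox2 and Blvra, the other oxygenase and reductase genes. Alas1 (44.4 and 94.2 FPKM) and Hmox1 (10.9 and 19.7 FPKM) show the widest gaps.

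Alas1 (mm9 chromosome 9, 106135786 to 106150285) had 44.4 FPKM in 4OHT cells and 94.2 FPKM in vehicle cells. The 4OHT value was thus 2.12-fold lower, a log2 FPKM ratio of -1.08, with q = 0.00165 in the authors' deposited table. That is the smallest q there, a floor that other rows share, Hmox1 and Cebpa among them. Among the 1769 tested rows of like level, within a factor of 2 of the higher Alas1 value, 13 had a log2 FPKM ratio as low, Alas1 included, or 0.735%. Its erythroid counterpart Alas2 was listed at 0.124 FPKM in 4OHT cells and 0.243 FPKM in vehicle cells and was not tested by the authors. The ALAS transcript of these cells was therefore almost all Alas1 in both conditions. The 3 tested rows nearest to Alas1 over the 2 values, on the log2(FPKM + 1) scale, were Anxa3 (45.0 FPKM in 4OHT cells and 94.2 in vehicle cells), Bhlhe40 (49.1 and 93.9 FPKM) and Stom (46.1 and 85.2 FPKM).

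Promoter windows, 250 bases before to 50 after a start site, were read from RefSeq on GRCm38.p6, a later build than that of the deposited loci. Of the 9 members, 7 matched, with 11 windows, and Fech and Hmox1 are not in the table. The windows of Alas1, which fell, of Urod, the uncalled member nearest to it in level, and of Cpox, the uncalled member with the lowest ratio, are printed with motif matches in capitals and all else in lower case.
Alas1, chr9:106247905-106248204, minus strand: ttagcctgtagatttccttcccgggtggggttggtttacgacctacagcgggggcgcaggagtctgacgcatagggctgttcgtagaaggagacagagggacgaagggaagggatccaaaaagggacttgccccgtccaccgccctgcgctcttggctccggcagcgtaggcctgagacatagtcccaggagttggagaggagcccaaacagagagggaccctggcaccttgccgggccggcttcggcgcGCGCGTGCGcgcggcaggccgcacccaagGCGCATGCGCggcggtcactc
Urod, chr4:116994364-116994663, minus strand: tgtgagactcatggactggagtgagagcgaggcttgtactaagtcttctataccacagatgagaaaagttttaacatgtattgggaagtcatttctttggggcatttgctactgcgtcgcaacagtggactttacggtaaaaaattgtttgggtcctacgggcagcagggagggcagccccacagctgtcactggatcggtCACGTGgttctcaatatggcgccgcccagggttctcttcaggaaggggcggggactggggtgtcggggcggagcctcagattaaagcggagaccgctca
Cpox, chr16:58669958-58670257, plus strand: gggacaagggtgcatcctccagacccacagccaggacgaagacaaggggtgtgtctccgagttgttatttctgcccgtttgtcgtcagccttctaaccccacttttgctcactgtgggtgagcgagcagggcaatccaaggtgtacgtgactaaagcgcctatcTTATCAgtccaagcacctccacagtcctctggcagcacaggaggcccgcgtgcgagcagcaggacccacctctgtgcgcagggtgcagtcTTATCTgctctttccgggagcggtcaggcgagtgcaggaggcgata

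Motifs were searched as exact letters on both strands. The Alas1 window holds 2 separate stretches that match CGCANGCGC, the motif of nuclear respiratory factor 1 (NRF-1), an activator of mitochondrial genes known to act on the Alas1 promoter in rat. Matches that overlap on opposite strands, as in the later stretch, are joined and counted as 1. The stretches begin 0 and 29 bases after the listed start, so neither lies in the 250 bases before it, and 6.31% of all 32851 windows hold the motif, which was added to the search after the values were seen. A window at another listed Alas1 start holds the same 2 stretches, before that start, and 1 of the Uros windows has 1. The Urod window has 1 match to the E-box CACGTG, 49 bases before the start, a motif held by 7.15% of all windows, by both Alad windows and by 1 Uros window. The Cpox window has matches to the GATA motifs TGATAA (9.05% of all windows) and AGATAA (11.2%), both read on the opposite strand as printed, and TGATAA also occurs in 1 Uros window. None of the 11 windows holds the C/EBP motif TTGCNNAA, found in 10.8% of all windows, or the antioxidant response element core TGACNNNGC, found in 12.4%. These matches are letters in a window and were not tested for binding.

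The cytosolic members that act after Alas1 showed no called change. Alad (mm9 chromosome 4, 62167018 to 62181097), which joins 2 molecules of aminolevulinate into porphobilinogen, had 5.59 FPKM in 4OHT cells and 5.03 FPKM in vehicle cells. Uros (chromosome 7, 140878013 to 140900978), which closes the porphyrin ring, had 6.19 FPKM in 4OHT cells and 5.74 FPKM in vehicle cells. Urod (chromosome 4, 116662822 to 116666980), which trims the side chains of the ring, was the member whose values were closest, at 39.1 FPKM in 4OHT cells and 38.9 FPKM in vehicle cells. For each of these genes the q given in the authors' deposited table was 1.00. Alad and Uros were also the lowest of the 7 synthesis members in both conditions.

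Of the mitochondrial enzymes of the last steps, Cpox differed most. Cpox (mm9 chromosome 16, 58670321 to 58680502), which makes protoporphyrinogen, had 11.0 FPKM in 4OHT cells and 14.8 FPKM in vehicle cells. Its log2 FPKM ratio of -0.43 had p = 0.01435 and q = 0.171 in the authors' deposited table and so did not pass. Its size was just short of the smallest change called in the authors' deposited table among rows of like level, 0.47 on the log2 scale. Ppox (chromosome 1, 173207123 to 173211317), the next oxidase, had 15.0 FPKM in 4OHT cells and 14.8 FPKM in vehicle cells. Fech, the ferrochelatase, had 17.7 FPKM in 4OHT cells and 18.0 FPKM in vehicle cells, and q was 1.00 for both in the authors' deposited table. The 6 synthesis members after the ALAS step summed to 94.5 FPKM in 4OHT cells and 97.1 FPKM in vehicle cells, a ratio of 0.973. With Alas1 added the sums were 139 and 191 FPKM, and Alas1 made up 32.0% of the sum in 4OHT cells and 49.2% in vehicle cells.

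On the breakdown side, the inducible oxygenase was the one called. Hmox1 (mm9 chromosome 8, 77617517 to 77624492) had 10.9 FPKM in 4OHT cells and 19.7 FPKM in vehicle cells. That was 1.8-fold lower in 4OHT cells, a log2 FPKM ratio of -0.85, with q = 0.00165 in the authors' deposited table. Of 4240 tested rows of like level, 59 had a ratio as low, Hmox1 included, or 1.39%. Hmox2, the constitutive form, had 46.5 FPKM in 4OHT cells and 44.6 FPKM in vehicle cells, with q = 1.00 in the authors' deposited table. Hmox2 was the more abundant of the pair in both conditions, at 4.25 times Hmox1 in 4OHT cells and 2.27 times in vehicle cells. Their sum was 57.4 FPKM in 4OHT cells and 64.3 FPKM in vehicle cells, a ratio of 0.893.

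Neither biliverdin reductase passed the test. Blvrb (mm9 chromosome 7, 28232997 to 28251000), a flavin and biliverdin reductase best known from red cells, was the lowest of the 9 members, with 2.94 FPKM in 4OHT cells and 2.61 FPKM in vehicle cells. Blvra, the main reductase of adult tissue, had 30.1 FPKM in 4OHT cells and 31.0 FPKM in vehicle cells, and q was 1.00 for both in the authors' deposited table.

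The order of levels on the FPKM scale differed between the conditions at a few places. In 4OHT cells it ran Alas1, Urod, Fech, Ppox, Cpox, Hmox1, Uros, Alad and Blvrb. In vehicle cells it ran Alas1, Urod, Hmox1, Fech, Ppox, Cpox, Uros, Alad and Blvrb. Alas1 led in both, at 1.14 times Urod in 4OHT cells and 2.42 times in vehicle cells, and Hmox1 ranked 6 in 4OHT cells and 3 in vehicle cells. With no replicate spread, it cannot be said which neighbours in these orders differ, and Cpox and Hmox1 in 4OHT cells (10.97 and 10.94 FPKM) and Ppox and Cpox in vehicle cells (14.79 and 14.76 FPKM) were all but equal. The median log2((4OHT FPKM + 1)/(vehicle FPKM + 1)) of the 9 members was 0.01, against 0.0009 over all tested rows.

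**Figure D2:**
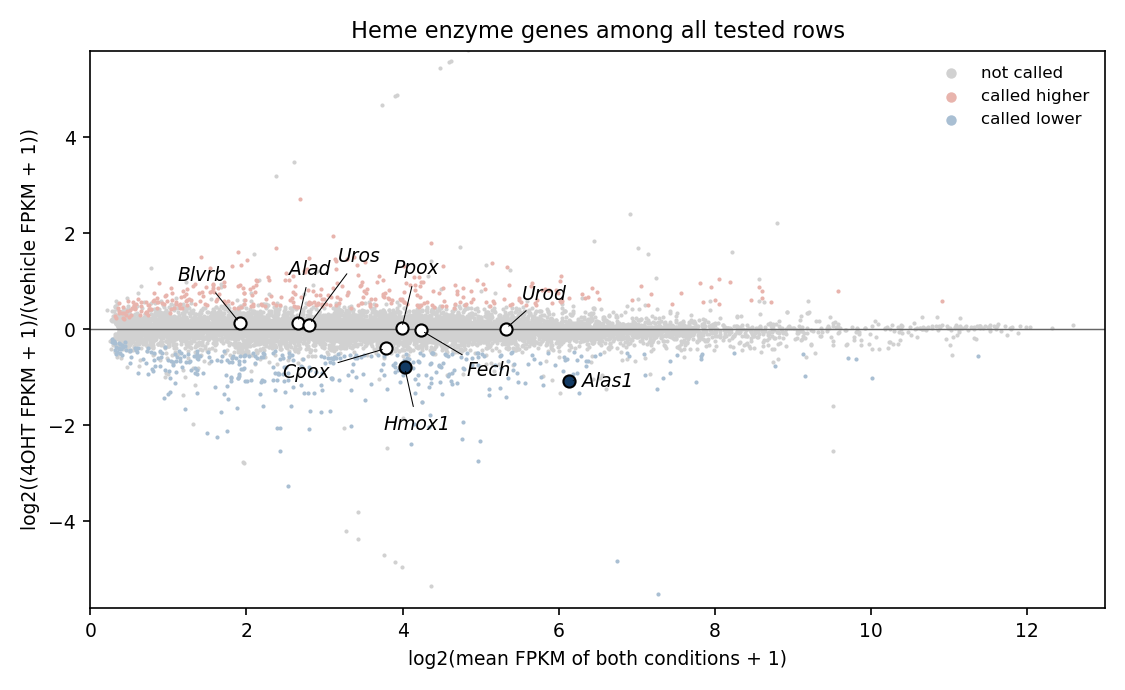
Log2((4OHT FPKM + 1)/(vehicle FPKM + 1)) against log2(mean FPKM + 1) for 11945 tested rows, with 8 more beyond the axis, coloured by the call in the authors' deposited table. Large circles are the 9 members: Alas1 (-1.07) and Hmox1 (-0.79), filled, lie among the rows called lower, and the other 7 lie between -0.4 and 0.13.

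Genes that supply or move heme and its precursors were measured beside the enzymes. Genes that reached 1 FPKM in at least 1 condition are called measured. Of 12 measured heme and porphyrin transport genes 0 were called, 2 had an unadjusted p under 0.05 in the authors' deposited table (Abcb6 and Slc46a1, both lower), and the median log2 ratio was -0.04. Tspo, an outer-membrane protein that binds porphyrins, had 136 FPKM in 4OHT cells and 151 FPKM in vehicle cells, and Tmem14c, a carrier of protoporphyrinogen, 136 and 144 FPKM. Slc46a1, a folate transporter also described as a heme carrier, had 4.83 FPKM in 4OHT cells and 7.53 FPKM in vehicle cells, with q = 0.0526 in the authors' deposited table. Of 8 measured genes of mitochondrial iron and iron-sulfur clusters 0 were called, and 0 at an unadjusted p under 0.05, with a median of 0.01. Glrx5, a glutaredoxin that hands on clusters, had 101 FPKM in both conditions, and Iscu, the cluster scaffold, 51.2 FPKM in 4OHT cells and 51.8 FPKM in vehicle cells. With 5.91% of all tested rows called either way, lists of this size would hold few calls in any case, and nothing particular to them is read from these counts.

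Among 11 measured cellular iron genes, 1 rose, where 2.8% of all tested rows were called higher and 5.91% either way, and nothing is read from a count of 1. Tfr2, a transferrin receptor that senses iron, had 28.7 FPKM in 4OHT cells and 15.3 FPKM in vehicle cells, 1.87-fold higher, with q = 0.00165 in the authors' deposited table. Tfrc, the main receptor for transferrin uptake, had 92.6 FPKM in 4OHT cells and 97.4 FPKM in vehicle cells and did not pass. The ferritin genes, which encode the iron store, were the highest of the list: Fth1 had 1129 FPKM in 4OHT cells and 1006 FPKM in vehicle cells, and Ftl1 2009 and 2254 FPKM. Neither passed, and the list median was 0.04.

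Genes that control Alas1 and Hmox1 were measured beside them. BACH1 represses Hmox1 until heme binds it, NRF2 (Nfe2l2) activates Hmox1, small MAF proteins partner with both, and LONP1 degrades ALAS1 protein. Of 12 measured members 0 were called, and 1, Nr1d2, was higher at an unadjusted p under 0.05 in the authors' deposited table. With 5.91% of all tested rows called either way, a list of this size would hold few calls in any case. Bach1 had 14.5 FPKM in 4OHT cells and 16.1 FPKM in vehicle cells, Nfe2l2 31.8 and 28.2 FPKM, Mafg 33.7 and 42.0 FPKM, and Lonp1 52.5 and 60.7 FPKM. Ppargc1a, the coactivator that induces Alas1 in fasted liver, was listed at 0.0129 FPKM in 4OHT cells and 0.0211 FPKM in vehicle cells. The list median was 0.01.

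Other targets of NRF2 and BACH1 gave 3 falls and 0 rises among 12 measured genes, with a median of -0.08. Of all tested rows, 3.11% were called lower, 2.8% higher and 5.91% either way. Gsr, glutathione reductase, fell to 62.3 FPKM in 4OHT cells, against 99.5 FPKM in vehicle cells. G6pdx, which feeds the pentose phosphate path and NADPH, fell to 40.2 FPKM in 4OHT cells, against 66.5 FPKM in vehicle cells, and Slc7a11, the cystine importer, to 3.89 FPKM, against 6.07 FPKM. Their q values, in the same order, were 0.00165, 0.0139 and 0.0111 in the authors' deposited table. Gclm, the modifier subunit of glutamate-cysteine ligase, stood on the other side, with 96.4 FPKM in 4OHT cells and 75.8 FPKM in vehicle cells and q = 0.301 in the authors' deposited table. Txn1 (393 and 430 FPKM) and Prdx1 (244 and 251 FPKM), the most abundant of the list, did not pass. Hmox1 was thus lower alongside 3 of these genes, while the other 9 were not called. A link between them was not tested.

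Proteins that carry heme or help make heme proteins gave 1 fall and 0 rises among 17 measured genes, with a median of -0.08. Over all tested rows, 3.11% were called lower and 5.91% either way, and nothing is read from a count of 1. Cybb, the heme-bearing subunit of the phagocyte oxidase, fell to 0.855 FPKM in 4OHT cells, against 1.61 FPKM in vehicle cells, and the authors' deposited table gave q = 0.0192. Its partner Cyba had 301 FPKM in 4OHT cells and 396 FPKM in vehicle cells, with q = 0.161 in the authors' deposited table. Mpo, the gene of myeloperoxidase and the most abundant of the list, had 603 FPKM in 4OHT cells and 496 FPKM in vehicle cells and did not pass. Ptgs2, a heme-dependent cyclooxygenase below 1 FPKM, fell to 0.212 FPKM in 4OHT cells, against 0.637 FPKM in vehicle cells, with q = 0.0031 in the authors' deposited table. Of the scavenging genes, Hp, which encodes haptoglobin, the carrier of free hemoglobin, fell to 8.94 FPKM in 4OHT cells, against 27.2 FPKM in vehicle cells, 3.04-fold lower, with q = 0.00165 in the authors' deposited table. Lrp1 (0.543 and 0.576 FPKM) and Cd163 (0.496 and 0.402 FPKM), receptors for hemopexin and for haptoglobin complexes, were below 1 FPKM in both conditions.

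**Figure D3:**
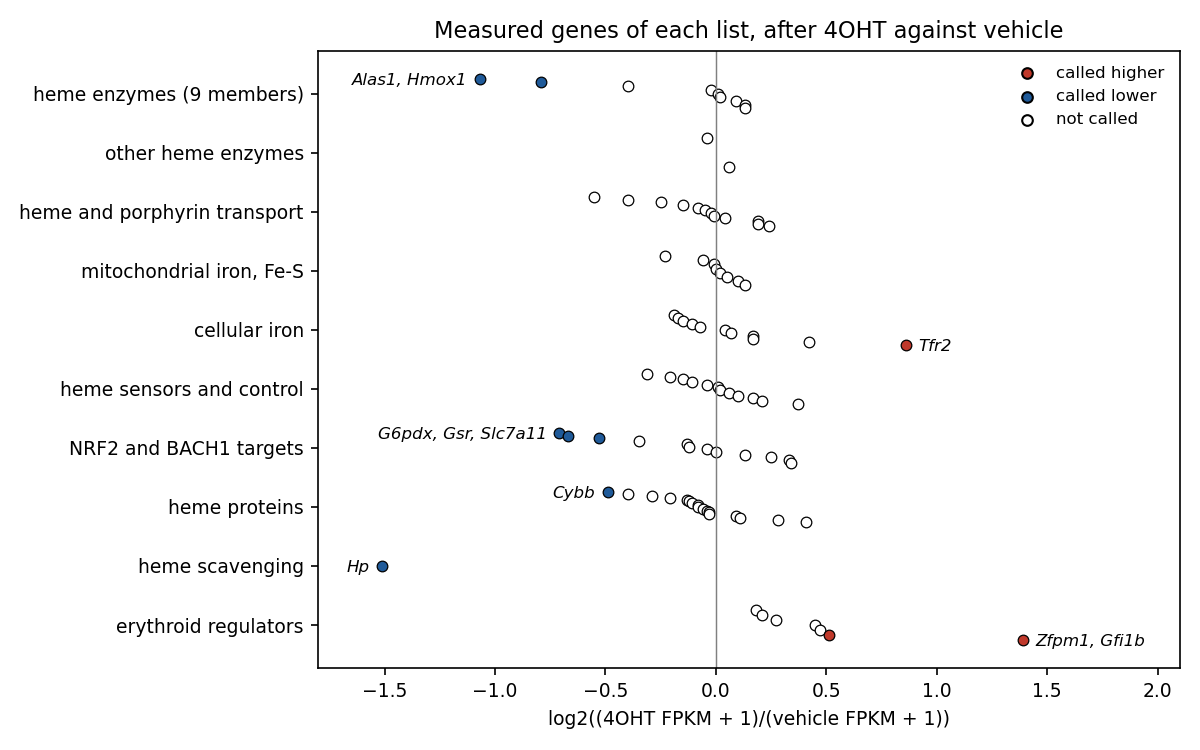
Log2((4OHT FPKM + 1)/(vehicle FPKM + 1)) of the measured genes of 10 lists, 1 point per gene, filled where called higher (red) or lower (blue) in the authors' deposited table. In the enzyme, transport and iron lists the called points are Alas1 (-1.07), Hmox1 (-0.79) and Tfr2 (0.86).

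The erythroid program, the largest user of heme in marrow, was only partly present. Of 15 rows in the erythroid marker list 12 were below 1 FPKM in both conditions. Of these, 3 were listed at 0, among them Slc4a1, the gene of the red cell anion exchanger, and Car1, a carbonic anhydrase. The list summed to 490.3 FPKM in 4OHT cells and 302.9 FPKM in vehicle cells, most of it from 1 row that joins Hbb-b1 with Hbb-b2, which encode beta globin. That row, the 1 called among the 3 measured, rose to 321 FPKM in 4OHT cells, against 175 FPKM in vehicle cells, 1.84-fold higher, and the authors' deposited table gave q = 0.0175. A further row, for Hbb-b2 at the same locus, had 115 FPKM in 4OHT cells and 89.5 FPKM in vehicle cells and was not called. The beta globin copies are nearly the same in sequence, so how reads split between these rows is uncertain. Both alpha globin rows were below 1 FPKM in both conditions. The row that joins Hba-a1 with Hba-a2 had 0.49 FPKM in 4OHT cells and 0.0396 FPKM in vehicle cells, and Hba-a2 0.0953 and 0.0882 FPKM. Of 7 measured erythroid regulators 2 rose, where 2.8% of all tested rows were called higher and 5.91% either way. Gfi1b, a repressor, had 15.6 FPKM in 4OHT cells and 5.31 FPKM in vehicle cells, and Zfpm1, the GATA1 cofactor FOG1, 13.8 and 9.41 FPKM. Their q was 0.00165 and 0.0332 in the authors' deposited table, and the list median was 0.45. The most abundant uncalled regulators were Nfe2 (198 FPKM in 4OHT cells and 164 in vehicle cells) and Lmo2 (168 and 148 FPKM). Gata1 had 1.23 FPKM in 4OHT cells and 0.609 FPKM in vehicle cells, with q = 0.0698 in the authors' deposited table. Klf1 (0.0719 and 0.215 FPKM) and Epor (0.127 and 0.0757 FPKM) were below 1 FPKM in both conditions and were not tested by the authors. Beside these regulators, 1 of the 7 synthesis members fell and 0 rose.

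Markers of other myeloid cells moved in the same comparison as Alas1 and Hmox1. Over all tested rows, 3.11% were called lower and 2.8% higher. Of 10 neutrophil and monocyte markers 8 fell and 0 rose, and they summed to 4296 FPKM in 4OHT cells and 6229 FPKM in vehicle cells. Of 8 stem and progenitor markers, the labelled cell type, all were above 1 FPKM, 5 rose and 0 fell, and they summed to 2152 FPKM in 4OHT cells and 1852 FPKM in vehicle cells. Much of that is Hoxa9 and Meis1, which both conditions carry as transduced copies, and the 6 others, a subset chosen after the values were seen, summed to 1129 FPKM in 4OHT cells and 679.6 FPKM in vehicle cells. The heme-recycling macrophage list had 1 fall (Vcam1, 2.77 FPKM in 4OHT cells and 6.83 in vehicle cells) and 1 rise (Mrc1, 0.499 and 0.185 FPKM). These were among 6 tested rows, and nothing is read from counts of 1. The list summed to 135.8 FPKM in 4OHT cells and 157.5 FPKM in vehicle cells, nearly all from Adgre1 (129 and 147 FPKM), and its defining factor Spic was listed at 0. The part of these marker shifts in the Alas1 and Hmox1 results was not tested. Excision of Cebpa, 4OHT itself and Cre activity cannot be told apart in this design.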

How the data were processed

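The authors deposited 1 table with 1 FPKM value per gene and condition, and a p-value and q-value for each row, per the file headers. Bowtie2 2.0.0.7, Cuffdiff 2.0.2, CASAVA 1.8.2 and build mm9 are named, without roles, per the submitters' processing notes. The sources used here do not give the annotation, the strand or the scaling between conditions. Antisense or overlapping partners therefore cannot be told apart; no deposited locus overlaps that of a member. Recomputing a Benjamini-Hochberg adjustment over all 11953 tested rows (status OK) returned the deposited q to within 5.28e-07. Deposited p-values have a floor of 5e-05, so q has one too.

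Calls are rows with status OK and q under 0.05. Ratios were computed with Python 3.11.15 and pandas 2.3.3 as log2((4OHT FPKM + 1)/(vehicle FPKM + 1)), which understates the change of low genes, or, where called log2 FPKM ratio, without the pseudocount. No test was run here, and code was tested on simulated data. Members and lists were chosen with earlier results of these data known. Genes of the pathway lists are named if called, as are the 2 uncalled of highest mean FPKM per list. The marker genes named and Slc46a1, Abcb6, Nr1d2, Tfrc, Gclm, Bach1, Nfe2l2, Ppargc1a, Gata1, Klf1 and Epor were added after their values were seen. Of 148 listed symbols 142 matched by symbol, 3 by an older one, 2 through a joined row and 1 had no row. Some genes of the pathway and marker lists are not reported here. Starts are written from 1.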

Additional observations from a re-analysis of the deposited data

How the results depend on the processing

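Alas1 and Hmox1 were called lower at every threshold tried (q under 0.01, q under 0.1 and unadjusted p under 0.05 in the authors' deposited table), and 0 members were higher at any. At unadjusted p under 0.05 the members called lower were 3, with Cpox, against 6.14% of all tested rows. With pseudocounts of 0.1 and 0.01 FPKM, equal total FPKM or centring on the median of tested rows, all members kept their direction except Fech, whose log2 ratio was 0.003 at equal total FPKM, a scaling that shifts every ratio by 0.023. The members' median moved by less than 0.1 under each setting.

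Counts for lists moved more. At q under 0.01, 1 NRF2 and BACH1 target was lower, 1 heme protein was lower (Ptgs2, below 1 FPKM, while Cybb was no longer called) and 1 erythroid regulator was higher. At q under 0.1, 1 transport gene was lower and 4 erythroid regulators were higher. At unadjusted p under 0.05, 2 transport genes were lower, 2 cellular iron genes higher and 1 lower, and 1 control gene higher. At the same threshold, 1 NRF2 and BACH1 target was higher and 3 were lower. There, too, 1 heme protein was higher and 3 were lower, and 4 erythroid regulators were higher. Over all tested rows, 2.12% were lower and 1.72% higher at q under 0.01. These shares were 3.64% and 3.44% at q under 0.1, and 6.14% and 6.2% at unadjusted p under 0.05. These counts depend on the threshold used, and nothing particular to a list is read from them. Of 54 list medians recomputed 2 moved by over 0.1, both with no minimum level: erythroid regulators, with 0.27 against 0.45, and scavenging genes, with -0.01 against -1.51. The -1.51 was the value of Hp alone, the 1 scavenging gene measured. In the 250 bases before the start alone, 0 member windows held AGATAA and 2, against 3, held the NRF-1 motif, the printed Alas1 window being the one lost.

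No paired analysis was possible because each condition has 1 deposited value, and leaving out a replicate could not be run for the same reason. Depth is unknown, and the smallest log2 change called among rows of like level was 0.48 for Alas1 and 0.47 for Hmox1.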

Other observations

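Genes beside the members on the chromosome were set next to them, a comparison chosen after the members' values were seen. Within 100 kb of Alas1 the authors tested 6 other rows and called 0. Twf2, an actin-binding twinfilin, had 59.9 FPKM in 4OHT cells and 60.8 FPKM in vehicle cells, and Wdr82, a subunit of a histone methyltransferase complex, had 35.0 FPKM in both. The lowest ratio among them was that of the centriole gene Poc1a, with 19.0 FPKM in 4OHT cells and 24.2 FPKM in vehicle cells and q = 0.404 in the authors' deposited table. Within 100 kb of Hmox1, 3 rows were tested and 0 called: Mcm5, a subunit of the replicative helicase, had 104 FPKM in both conditions, Hmgxb4 15.0 FPKM in 4OHT cells and 14.2 FPKM in vehicle cells, and Tom1 13.4 and 17.2 FPKM. Around the other 7 members, 1 row was called, Pcp4l1 among 13 tested near Ppox, which was lower. Near Cpox, 2 rows were tested and 0 called, with a median log2 ratio of -0.51. Over all tested rows, 5.91% were called either way. So few neighbours would hold few calls in any case, and nothing is read from these counts.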
